A study of Homo sapiens with 4 samples.

Results

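The mitosis and G2/M genes are 50 genes whose products drive cells into mitosis, build the spindle and the kinetochores, hold chromosomes until all are attached and then divide the cell. They were chosen by name, as listed genes of this phase, with earlier results of these data known. Each was found by the gene symbol that the platform annotation gives to each transcript cluster, a probe set that summarises 1 locus. Of the 50 genes, 49 had a transcript cluster of that symbol, out of 21448 transcript clusters fitted, and each of the 49 had exactly 1. The expression of CKAP5, a microtubule polymerase, was not analysed here, but its promoter is counted below.

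Total RNA came from SUIT2 cells exposed to fb-PMT at 30 µM for 24 h (2 arrays) and from SUIT2 cells exposed to phosphate-buffered saline alone for 24 h (2 arrays, the control group). fb-PMT is a thyroid hormone analog derived from tetraiodothyroacetic acid that carries a fluorobenzyl group on a polyethylene glycol chain and was designed to bind the hormone site of integrin αvβ3. The study's stated interest was the drug's effect on mitochondrial genes, and mitosis genes were measured on the same arrays. The line is known to derive from a pancreatic ductal adenocarcinoma, but the labels call the cells glioblastoma. Of the 8 lineage markers examined, the 4 of simple epithelium (KRT8, KRT18, KRT19 and EPCAM) had log2 values of 15.09 or more on all 4 arrays, while the glial GFAP and OLIG2, the fibroblast COL1A1 and the leukocyte PTPRC had 4.57 or less, below the array's negative controls. Both groups are 1 cell line at 1 time, and the drug was given at 1 dose. The labels do not state whether replicate arrays are of separate cultures, so the p-values cover the spread between these arrays alone, and that spread may be technical.

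Entry into mitosis is set by the kinase CDK1 bound to cyclins A and B, once CDC25 phosphatases have removed inhibitory phosphates from it. PLK1 and the Aurora kinases then reshape centrosomes, spindle and chromosomes, and the spindle checkpoint restrains the anaphase-promoting complex (APC/C), a ubiquitin ligase, until every kinetochore is attached. Most of these genes are transcribed in a late wave of the cell cycle. In quiescent and G1 cells the DREAM complex represses them, and in late S phase and G2 the MuvB core with B-MYB and FOXM1 activates them. The MuvB core binds a short promoter element named the cell cycle genes homology region (CHR), which often lies near CCAAT boxes bound by the factor NF-Y.

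The members share these promoter elements, which their choice did not use. RefSeq promoter windows on GRCh38.p14, from 250 bases before to 50 bases after the start site, were found for 43 of the 50 genes, in 55 windows since 8 genes had several starts. TTK, TPX2, AURKA, BUB3, UBE2C, BIRC5 and FOXM1 had none in the table. A CHR, searched on both strands as TTTGAA or as the variant spellings TTTAAA and, less canonical, TTCGAA, lay in 80% of the member windows, against 25.1% of all 35116 windows and 21.4% of the 22198 windows of protein-coding genes. A CCAAT box, searched as CCAAT on both strands, lay in 69.1% of the member windows, against 34.6% of all windows. A CHR match and a CCAAT match may overlap by a base or adjoin, and each was counted by itself. By gene, 39 of the 43 held a CHR and 30 held both elements, and in 28 a CHR began within the 100 bases before a start site. A forkhead match (GTAAACA), the kind of site that FOXM1 as a forkhead protein can bind, lay in 1.82% of member windows, against 3.42% of all. An E2F match (TTTCGCGC, TTTGGCGC or TTTCCCGC, both strands) lay in 7.27%, which is 4 windows of 3 genes. The shares were 2.74% of all windows and 3.43% of those of protein-coding genes. Windows of 1 gene can overlap, so the same match can count in 2 windows, as the E2F match of CDK1 did. A match is only a run of letters and does not show that a factor binds there.

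**Figure D1:**
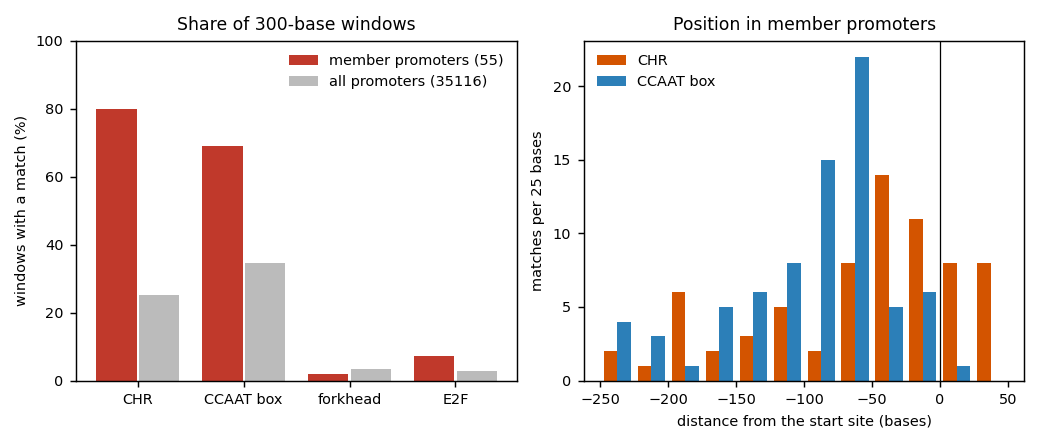
Left, the percentage of 300-base promoter windows that hold each motif, for the 55 windows of member genes and for all 35116 windows. Right, the distance of CHR and CCAAT box matches from the start site in the member windows, as matches per 25 bases. CHR and CCAAT matches are found in 80% and 69.1% of the member windows, and most CHR matches lie close to the start.

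Below are the 130 bases before the start site of 6 members, shown because CENPE had the lowest difference of the members, KIF20A was among the 4 whose fb-PMT arrays both lay above the control arrays, and CDC20, PLK1, CCNB1 and CCNB2 are core genes of the late wave. Capitals mark CHR and CCAAT box matches on either strand (ATTGG is the CCAAT box read on the other strand). Sequences are from RefSeq, GRCh38.p14, 5′ to 3′ in the direction of transcription. They are chr4:103198344-103198473 on the minus strand for CENPE and, all on the plus strand, chr5:138178982-138179111 for KIF20A, chr1:43358851-43358980 for CDC20, chr16:23678759-23678888 for PLK1, chr5:69167020-69167149 for CCNB1 and chr15:59105016-59105145 for CCNB2.
CENPE: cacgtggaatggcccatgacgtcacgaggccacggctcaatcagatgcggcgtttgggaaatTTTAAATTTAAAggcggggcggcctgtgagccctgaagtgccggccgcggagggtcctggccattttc
KIF20A: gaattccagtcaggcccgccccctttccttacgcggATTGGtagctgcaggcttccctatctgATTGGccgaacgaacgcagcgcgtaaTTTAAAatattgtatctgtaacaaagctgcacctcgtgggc
CDC20: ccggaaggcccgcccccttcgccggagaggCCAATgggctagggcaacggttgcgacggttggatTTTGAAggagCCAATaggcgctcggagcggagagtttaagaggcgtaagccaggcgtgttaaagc
PLK1: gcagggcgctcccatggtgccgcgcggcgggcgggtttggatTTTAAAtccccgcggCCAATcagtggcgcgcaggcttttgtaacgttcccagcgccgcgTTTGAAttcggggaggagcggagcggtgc
CCNB1: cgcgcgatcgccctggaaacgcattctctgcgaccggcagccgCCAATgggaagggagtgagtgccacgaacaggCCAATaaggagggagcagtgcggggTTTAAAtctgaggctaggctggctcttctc
CCNB2: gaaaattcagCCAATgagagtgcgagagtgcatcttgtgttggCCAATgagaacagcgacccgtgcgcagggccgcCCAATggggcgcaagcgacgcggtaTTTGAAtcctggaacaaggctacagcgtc
CENPE held 2 adjoining CHR matches and 0 CCAAT boxes in this stretch. KIF20A and CCNB1 each held 1 CHR and 2 CCAAT boxes, and so did CDC20. PLK1 held 2 CHR and 1 CCAAT box, and CCNB2 1 CHR and 3 CCAAT boxes.

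Mitosis genes were well detected and differed little between fb-PMT and control cells. All 49 measured members lay above the negative controls on all 4 arrays, with log2 values of 9.43 to 15.35. In limma's test 0 of the 49 passed an adjusted p of 0.05, against 0.0979% of all transcript clusters, all of them higher with fb-PMT. At an unadjusted p under 0.05, 2 members were lower (CENPE and CDC25B), a share near the 5.49% of all transcript clusters, and 0 were higher, against 5.7% of all. These counts move with the setting. With an intensity trend 7 were lower and 2 higher, and among transcript clusters above the negative controls 3 were lower and 2 higher. With the replicate block 1 was lower and 0 higher. The matching shares of all transcript clusters were not computed for these settings. Calls at the adjusted threshold over all transcript clusters also moved, from 21 to 403, 318 and 1 in the same order, so these counts cannot be read as particular to the members. The members' median log2 difference, fb-PMT minus control, was -0.053, with quartiles of -0.16 and 0.03. Over all transcript clusters the median was -0.017, and over the 9195 above the negative controls in at least 1 group it was 0.011. By sign, 34 members were lower (69.4%) and 15 higher. Of all transcript clusters 52.7% were lower, and of those above the negative controls 48.1%. These 2 shares are also the background for the sign counts of roles and lists below. Both fb-PMT arrays lay below both control arrays in 18 of the 49 (36.7%) and above them in 4 (8.16%), against 22.3% and 20.2% of all transcript clusters, and 22.8% and 27.3% of those above the negative controls. The members' mean value was 12.256 and 12.241 on the fb-PMT arrays, against 12.267 and 12.364 on the control arrays.

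At the level of the list, the members' mean was 12.248 with fb-PMT and 12.316 in the control group, a difference of -0.067. The list means of the replicate arrays were 0.015 apart in the fb-PMT group and 0.097 apart in the control group. For single members, the median size of a difference between groups was 0.095, and the median gap between replicate arrays was 0.105 in the fb-PMT group and 0.127 in the control group. Of the 49 members, 35 (71.4%) were higher on control replicate 2 than on control replicate 1, as were 55.1% of the transcript clusters above the negative controls. Without control replicate 2, 26 of the 49 were lower with fb-PMT and the median was -0.025, and without control replicate 1, 36 were lower and the median was -0.107. Without fb-PMT replicate 2 the median was -0.080. The part of the gap between the control arrays in the result was not tested.

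The intervals rest on the spread between these arrays alone. Each holds for 1 member by itself and is not adjusted for the 49 members. The 95% interval of the difference lay within 2-fold in either direction for 48 of the 49 members, and within 1.5-fold for 35 of them (71.4%). The same shares were 93% and 51.1% for transcript clusters above the negative controls. CENPE was the member whose interval reached past 2-fold. Since RNA was pooled from whole cultures, a smaller share of cells in G2 and mitosis cannot be told apart from less RNA per cell.

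**Figure D2:**
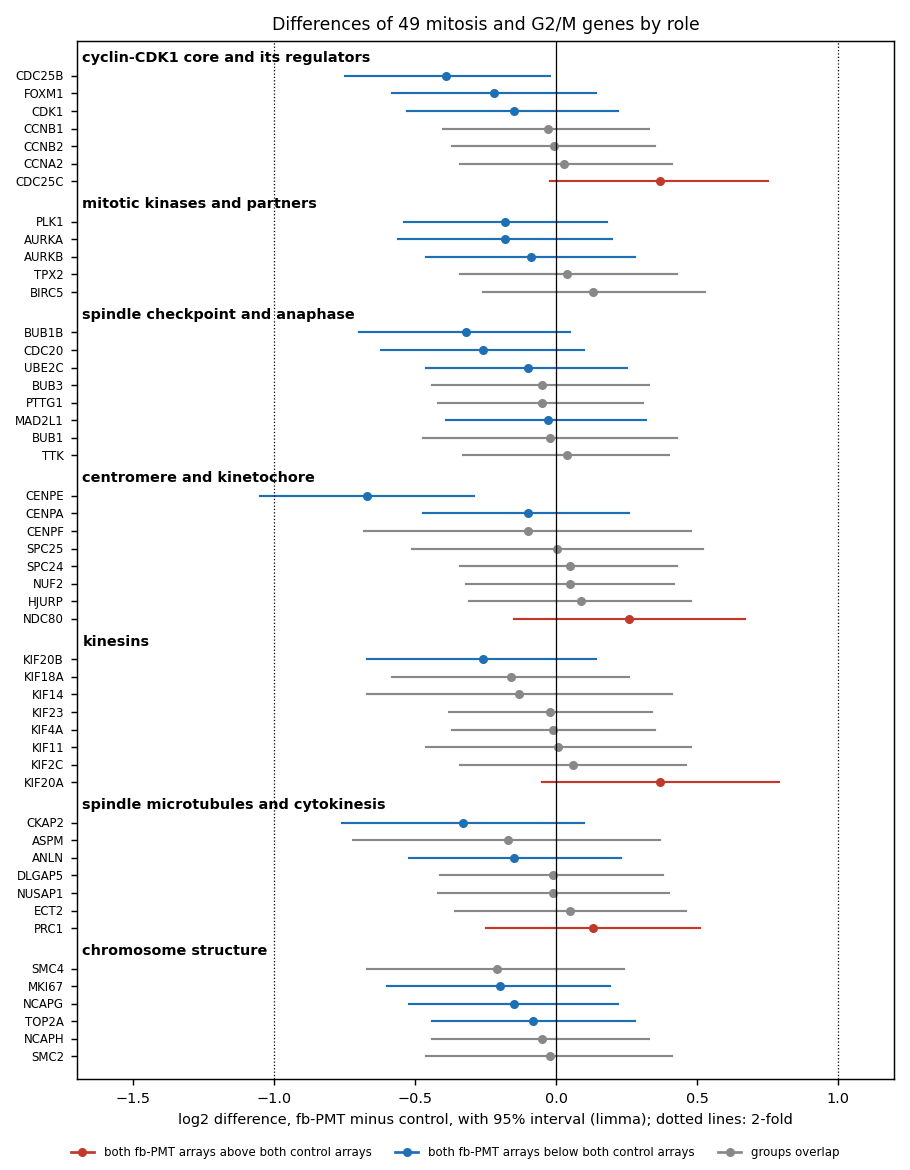
Log2 difference, fb-PMT minus control, of the 49 measured members (points) with the 95% interval from limma (lines), grouped by role, n = 2 arrays per group. Colours show whether both fb-PMT arrays lay above both control arrays (4 members), below both (18) or overlapped them (27), and dotted lines mark 2-fold. The interval of CENPE alone reaches past a dotted line, and 0 members passed the adjusted threshold.

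In the cyclin and CDK1 core, the kinase and its cyclins stood near their control values while the CDC25 phosphatases lay apart in opposite directions. CDK1, the kinase that starts mitosis, had log2 values of 12.28 and 12.13 with fb-PMT, against 12.40 and 12.32 in the control group. Its arrays did not overlap, but the difference of -0.15 had an interval of -0.53 to 0.22. CCNB1, the main mitotic cyclin, had 13.91 and 13.97 with fb-PMT, against 14.01 and 13.93 in the control group, and the groups overlapped (difference -0.03, interval -0.40 to 0.33). The other cyclins, CCNA2 and CCNB2, differed by 0.03 and -0.00805, also with overlap. The intervals of all 3 cyclin genes lay within 1.5-fold.

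CDC25B, a phosphatase that activates cyclin-CDK1 at the centrosome before mitosis, had 11.99 and 11.90 with fb-PMT, against 12.32 and 12.35 in the control group. The groups were separated by more than either replicate gap, and the difference was -0.39 (SE 0.15, interval -0.75 to -0.02, unadjusted p = 0.0407, adjusted p = 0.432 by limma). CDC25C, a related phosphatase that CDK1 itself stimulates, lay the other way, with 9.99 and 9.79 with fb-PMT, against 9.53 and 9.51 in the control group. Its difference was 0.37 (SE 0.16, interval -0.02 to 0.75, adjusted p = 0.464 by limma). FOXM1, the transcription factor of the late wave, had 13.70 and 13.71 with fb-PMT, against 13.88 and 13.96 in the control group, a difference of -0.22 with an interval of -0.58 to 0.14. Of the 7 genes in this role, 5 were lower, 2 higher and 0 passed, and both fb-PMT arrays were below both control arrays in 3 and above them in 1 (22.3% and 20.2% of all transcript clusters).

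Among the mitotic kinases and their partners, both fb-PMT arrays lay below both control arrays by small margins for the 3 kinases and not for the partners. The same held for 22.3% of all transcript clusters and 22.8% of those above the negative controls. Of the 5 genes 0 passed, and the adjusted p by limma was 0.684 for PLK1, 0.704 for AURKA and 0.865 for AURKB. PLK1, which acts from centrosome maturation to cytokinesis, had 15.14 and 15.09 with fb-PMT, against 15.27 and 15.31 in the control group (difference -0.18, interval -0.54 to 0.18). AURKA, the spindle pole Aurora kinase, had 14.50 and 14.48 with fb-PMT, against 14.76 and 14.58 in the control group (difference -0.18, interval -0.56 to 0.20). AURKB, the Aurora kinase of the chromosomal passenger complex, had 10.71 and 10.70 with fb-PMT, against 10.85 and 10.74 in the control group. Its groups were nearly adjacent, at a difference of -0.09. BIRC5 (survivin), which anchors AURKB at centromeres, had 10.52 and 10.63 with fb-PMT, against 10.34 and 10.53 in the control group, and these overlapped (difference 0.13). TPX2, which activates AURKA on spindle microtubules, differed by 0.04. All 5 intervals lay within 1.5-fold.

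Genes of the spindle checkpoint and of anaphase were lower in 7 of 8 cases, with a median difference of -0.054. BUB1B, which encodes the checkpoint protein BUBR1, had 11.71 and 11.76 with fb-PMT, against 11.99 and 12.14 in the control group. Its arrays did not overlap and the difference was -0.32 (SE 0.15, interval -0.70 to 0.05, adjusted p = 0.506 by limma). CDC20, the APC/C activator that the checkpoint holds back, had 13.90 and 13.84 with fb-PMT, against 14.16 and 14.12 in the control group (difference -0.26, interval -0.62 to 0.10). The other 6 genes here, among them the checkpoint kinases TTK and BUB1, the checkpoint proteins BUB3 and MAD2L1, the APC/C ubiquitin-conjugating enzyme UBE2C and the separase inhibitor PTTG1 (securin), ran from -0.10 to 0.04. UBE2C was the lowest of these, with 12.70 on both fb-PMT arrays, against 12.79 and 12.82 in the control group.

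CENPE stood furthest from its control value among all 49 members. It encodes a kinesin at the kinetochore that carries chromosomes to the spindle equator. It had log2 values of 9.71 and 9.62 with fb-PMT, against 10.42 and 10.26 in the control group, so the groups were far apart beside replicate gaps of 0.09 and 0.16. This is 1.59-fold lower (log2 difference -0.67, SE 0.15, interval -1.05 to -0.29), with an unadjusted p = 0.0054 and an adjusted p = 0.268 by limma, which did not pass. When the variance was allowed to follow intensity the adjusted p was 0.0385, and among transcript clusters above the negative controls it was 0.0366, so the call differs between these settings. When each array was left out in turn its difference ran from -0.75 to -0.59, with adjusted p-values of 0.247 to 0.711.

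The other centromere and kinetochore genes lay closer to their control values than CENPE. NDC80, the microtubule-binding subunit of the outer kinetochore complex named after it, had 10.89 on both fb-PMT arrays, against 10.77 and 10.49 in the control group (difference 0.26, interval -0.15 to 0.67). Its partners in that complex, NUF2, SPC24 and SPC25, differed by 0.05, 0.05 and 0.00308, all with overlapping groups. The centromeric histone gene CENPA differed by -0.10 and its chaperone HJURP by 0.09. CENPF, a large kinetochore and nuclear matrix protein, had 11.44 and 11.00 with fb-PMT, against 11.10 and 11.54 in the control group, a wide spread in both. The median of the 8 genes was 0.025, with 5 higher and 3 lower.

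Of the 8 KIF genes, the kinesins other than CENPE, 5 were lower and 3 higher, with a median of -0.017, and 2 paralogs gave the values furthest from 0 among the 8, in opposite directions. KIF20A, which moves the passenger complex to the central spindle for cytokinesis, had 12.38 and 12.59 with fb-PMT, against 12.01 and 12.22 in the control group. The gap between groups was smaller than either replicate gap of 0.21 and 0.22, and the difference of 0.37 (SE 0.17, interval -0.05 to 0.79) had an adjusted p = 0.5 by limma. KIF20B, a related kinesin of late cytokinesis, had 11.32 and 11.20 with fb-PMT, against 11.41 and 11.64 in the control group (difference -0.26, interval -0.67 to 0.14). The spindle motor KIF11, the microtubule depolymeriser KIF2C, the chromokinesin KIF4A, the central spindle motor KIF23, KIF14 and KIF18A overlapped between groups, at -0.16 to 0.06. KIF14 had 9.63 and 9.74 with fb-PMT, against 9.55 and 10.09 in the control group, so its control arrays alone spanned the treated ones.

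Genes of spindle microtubules and cytokinesis had a median of -0.014 over 7 measured genes. CKAP2, a microtubule-stabilising protein, had 11.88 and 11.57 with fb-PMT, against 12.00 and 12.10 in the control group (difference -0.33, interval -0.76 to 0.10). Its fb-PMT arrays were 0.31 apart, and leaving out an array moved the difference from -0.48 to -0.17. ANLN (anillin), the scaffold of the cleavage furrow, had 15.19 and 15.09 with fb-PMT, against 15.22 and 15.35 in the control group (difference -0.15). The other 5 ran from -0.17 to 0.13: the spindle pole protein ASPM, the spindle assembly factors DLGAP5 and NUSAP1, the microtubule cross-linker PRC1 and the cytokinesis factor ECT2. PRC1, at 12.82 and 12.94 with fb-PMT, against 12.68 and 12.81 in the control group, was the highest of these and its groups did not overlap.

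All 6 genes of chromosome structure were lower, by -0.21 to -0.02. MKI67, the proliferation marker Ki-67 that coats mitotic chromosomes, had 13.99 and 13.75 with fb-PMT, against 14.05 and 14.09 in the control group (difference -0.20, interval -0.60 to 0.19). Leaving out 1 array moved it from -0.32 to -0.08. TOP2A, the topoisomerase that untangles sister chromatids, had 14.17 and 14.19 with fb-PMT, against 14.24 and 14.29 in the control group (difference -0.08, interval -0.44 to 0.28). Its groups did not overlap, but the margin was small. The condensin gene SMC4 had 14.86 and 14.72 with fb-PMT, against 14.83 and 15.19 in the control group, with 1 high control array and a difference of -0.21. Without 1 array that difference ran from -0.39 to -0.04. The other condensin genes were SMC2 at -0.02, NCAPH at -0.05 and NCAPG at -0.15.

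**Figure D3:**
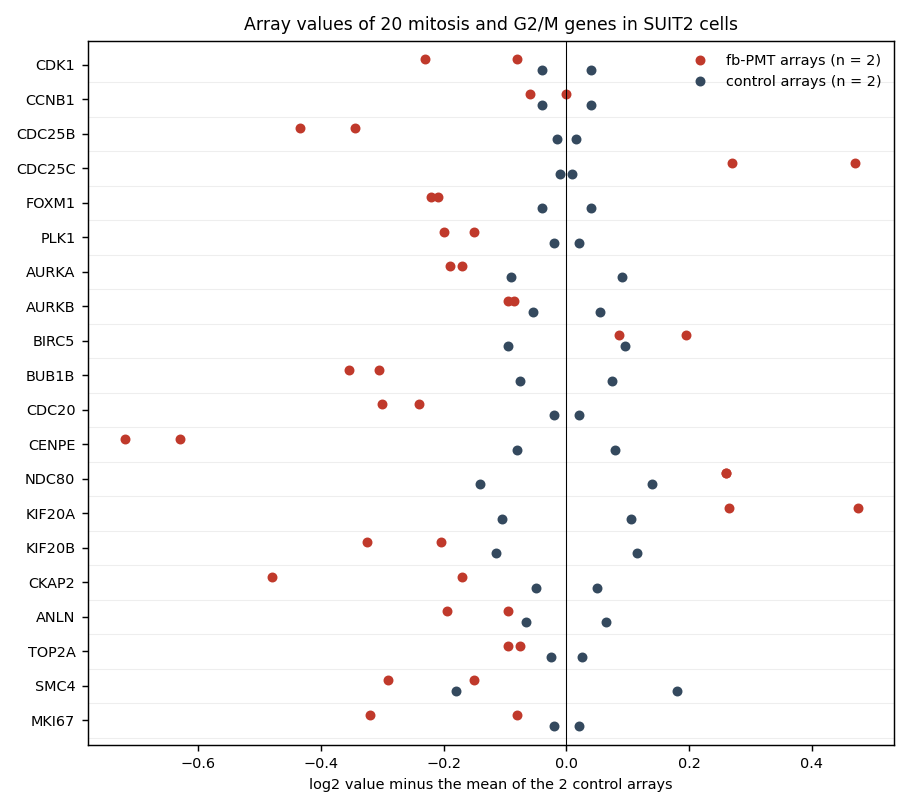
Each array's log2 value minus the mean of the 2 control arrays, for the 20 members picked by rule for array values, fb-PMT arrays above and control arrays below within each row. CENPE and CDC25B lie left of their control arrays and CDC25C and KIF20A right of them, while BIRC5, CCNB1 and SMC4 overlap (the fb-PMT points of NDC80 coincide).

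The 38 measured members with a CHR in a promoter window had a median log2 difference of -0.045, with 28 lower, and the 29 that also held a CCAAT box had a median of -0.035. Only 4 measured members with a window had no CHR, and their median was -0.029. No test was made of these medians.

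Genes that work with the members, in 7 lists of mitotic partners with 110 measured genes of 115 listed, also had 0 past the threshold, with a median of -0.023. At an unadjusted p under 0.05, 6 of these genes were lower (5.45%) and 1 higher, shares no larger than the 5.49% and 5.7% of all transcript clusters. MAD1L1, the checkpoint protein that recruits MAD2L1, had 7.10 and 7.26 with fb-PMT, against 7.79 and 7.69 in the control group. Both fb-PMT values were below the negative controls of their arrays. With the negative controls' 95th percentile in their place, the estimate was 1.43-fold lower, which is not a lower limit of the change. On the array values limma gave a difference of -0.56 (interval -0.94 to -0.18, adjusted p = 0.342). SGO2, a shugoshin that protects centromeric cohesion, had 8.17 and 7.98 with fb-PMT, against 8.52 and 8.61 in the control group (difference -0.48, adjusted p = 0.378 by limma). Their list, checkpoint and passenger partners, was lower in 11 of 12 genes with a median of -0.169, the lowest of the lists, and its median ran from -0.239 to -0.152 without 1 array. KIF22, a chromokinesin, was the gene higher at an unadjusted p under 0.05. It had 10.97 and 11.20 with fb-PMT, against 10.47 and 10.58 in the control group (difference 0.56, adjusted p = 0.355 by limma).

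The machinery upstream and downstream was mixed in direction. Of the APC/C genes, 11 of 17 were lower (median -0.042, and -0.031 to 0.065 without 1 array), with ANAPC11, a catalytic subunit, at 0.31 and the APC/C inhibitor FBXO5 at -0.27. Mitotic entry regulators split evenly at 8 and 8 (median 0.019, and -0.019 to 0.103 without 1 array), with the phosphatase gene CDC25A at -0.45 and MASTL (Greatwall), the kinase that keeps a CDK1-opposing phosphatase off, at 0.36. Other kinetochore and centromere genes split at 11 and 11 (median 0.001, and -0.058 to 0.048 without 1 array). CENPC and CENPI, both of the inner kinetochore, were at -0.45 and 0.36, but CENPC was below the negative controls on 1 of the fb-PMT arrays. Condensin and cohesin partners were higher in 9 of 16 (median 0.054, and 0.011 to 0.101 without 1 array), with the cohesin gene SMC1A at -0.40 and the condensin II gene NCAPG2 at 0.33. Besides KIF22, other spindle and cytokinesis genes (8 of 14 higher, median 0.028, and -0.037 to 0.150 without 1 array) had GTSE1, a microtubule-bound p53 regulator, at 0.34.

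The MuvB, B-MYB and DREAM genes, which encode the factors that read the CHR and their partners, were higher in 7 of 13, with a median of 0.075. E2F5, a repressor E2F, had 9.73 and 9.41 with fb-PMT, against 10.38 and 9.89 in the control group (difference -0.57, interval -1.12 to -0.01, adjusted p = 0.445 by limma). LIN37, a MuvB subunit, had 7.92 and 8.05 with fb-PMT, against 8.31 and 8.48 in the control group (difference -0.41, adjusted p = 0.432 by limma). Without 1 array the median of these 13 genes ran from -0.081 to 0.095, so it has no settled sign.

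The wave of transcription before mitosis, that of DNA replication and G1/S genes, had a median of -0.003 over 43 measured genes, with 22 lower and 21 higher, beside -0.053 for the mitosis members. Without 1 array its median ran from -0.086 to -0.018, and without control replicate 2 it was -0.041, beside -0.025 for the members. Both fb-PMT arrays lay below both control arrays in 13 of these genes (30.2%) and above them in 3 (6.98%), beside 36.7% and 8.16% of the members and 22.3% and 20.2% of all transcript clusters. Its genes furthest from 0 were POLA2, a subunit of DNA polymerase alpha, at 0.48 (interval 0.01 to 0.95), and TIPIN, a replication fork protector, at -0.45 (interval -0.81 to -0.08). Of this list 0 passed. The difference between the 2 lists was not tested.

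**Figure D4:**
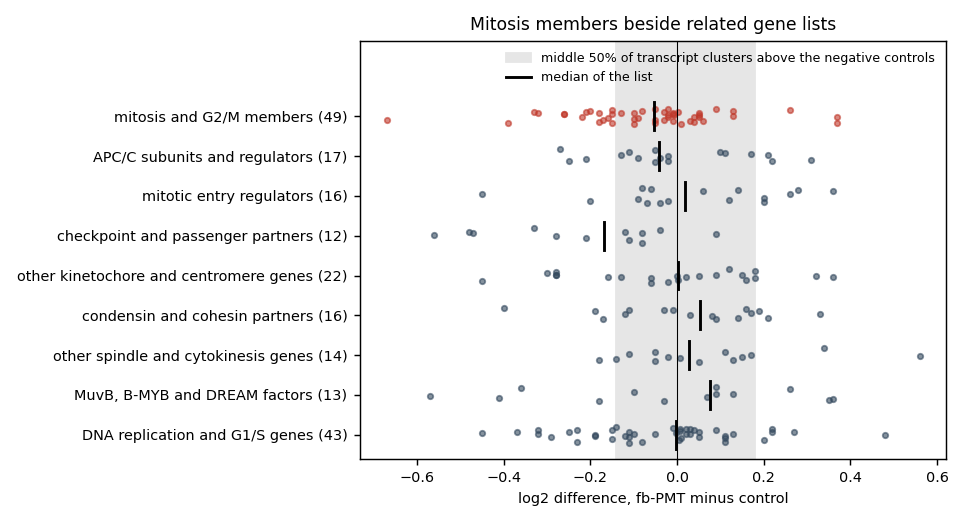
Log2 difference, fb-PMT minus control, of each gene (points) in the mitosis and G2/M members and in 8 related lists, with measured genes per list in parentheses and the list's median as a black bar. The grey band spans the quartiles, -0.14 to 0.18, of transcript clusters above the negative controls. Points of each list spread to both sides of 0, with medians from -0.169 (checkpoint and passenger partners) to 0.075 (MuvB, B-MYB and DREAM factors), and the band describes single transcript clusters, not list medians.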

How the data were processed

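Per the labels, RNA was labelled with biotin as whole-transcript sense targets, 1 sample to an array. Per the submitters' processing notes, the authors used RMA and Transcriptome Analysis Console 4.0.1.36, and the deposited values are on the log2 scale. Which RMA variant and which genome build they used is not given in the sources used here. In RMA, differences of dim probe sets shrink and shifts that most genes share are removed. Scanner files were not used here, and the number of arrays limits the precision (median standard error of a difference 0.175).

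Of 24351 probe sets, 2903 controls were left out. The 95th percentile of the 612 negative controls (7.15 to 7.29 on the fb-PMT arrays, 7.22 to 7.38 on the control arrays) served as background. The 21448 transcript clusters, 17709 of them with 1 gene symbol from the platform annotation, entered limma 3.58.1 (R 4.3.3, functions lmFit and eBayes, no intensity trend, no covariate, 2 residual and 3.72 prior degrees of freedom). Tests are two-sided, with Benjamini-Hochberg adjustment over all transcript clusters and a threshold of 0.05. The fit was tested on simulated data. A permutation of 2 against 2 arrays cannot go below p = 0.333 two-sided and was not used.

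Members and lists were chosen with earlier results of these data known. Array values are printed for CDK1, CCNB1, PLK1, AURKA, AURKB, FOXM1, MKI67, TOP2A, BIRC5 and CDC20, for members with an unadjusted p under 0.05 and for the 2 smallest p in each of 7 roles, and each related list gives its 2 largest differences. Values of UBE2C, CENPF, KIF14 and PRC1 were added after they were seen. Same-numbered arrays deviated from their group means with a correlation of 0.042, so the numbers do not show pairs. Alternatives were an intensity trend, filters on dim probe sets, renewed normalization, array weights, the replicate block, averaging per symbol and leaving out each array.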

Additional observations from a re-analysis of the deposited data

How the results depend on the processing

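The count of members past the threshold stayed at 0 under 10 of 12 alternatives and was 1 with an intensity trend and 1 among transcript clusters above the negative controls, CENPE in both. The transcript clusters called numbered 21, against 403 with the trend, 318 above the negative controls, 67 without the lowest 30%, 17 after quantile normalization, 1 with the replicate block and 1 to 9 when an array was left out. With the replicate block 0 members passed, and CENPE kept its difference of -0.67 with an adjusted p of 0.364. The members' median of -0.053 ran from -0.107 to -0.025 when an array was left out, and was -0.071 after quantile normalization, where 37 of 49 members were lower. Of the 20 members picked by rule for array values, 1 changed sign under an alternative, CCNB1, which reached 0.01. The added members UBE2C, CENPF, KIF14 and PRC1 were not followed singly across the alternatives. In the related lists 0 genes passed under any of the 12. With 2 arrays per group the standard error of a single member's difference was 0.14 to 0.23.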
